A study of Mus musculus with 9 samples.

Results

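The stria vascularis of the cochlea keeps endolymph, the fluid above the hair cells, rich in potassium and at a high positive voltage, the endocochlear potential. RNA levels of 8 genes of this tissue were followed here: Kcne1, Kcnq1, Slc12a2, Atp1b2, Bsnd, Kcnj10, Atp13a5 and Lrp2. The rule that chose them was their symbol, and it set no threshold on their values. Values came in 2 tables of TPM, a unit scaled for transcript length and library total. The first, of homozygous and WT libraries, held 1410 gene symbols with 5 of the 8 genes (Slc12a2, Atp1b2, Kcnj10, Atp13a5 and Lrp2), and the second, of treated and homozygous libraries, held 25579 with all 8.

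The tissue was the membranous labyrinth, the soft tissue of the cochlea, taken from mice at postnatal day 28 and sequenced as stranded total RNA. The treated group was hMPZL2Q74X/Q74X, homozygous for a humanized MPZL2 allele with a nonsense variant, and had received AAV-ie-ABE8eWQ-SpRY:sgRNA3, a viral vector for an adenine base editor and its guide RNA, at postnatal day 2 by injection at the round window. The homozygous group had the same genotype, and the WT group was Mpzl2 WT. The labels gave no injection for either of those groups, and 3 libraries, called biological replicates, for each of the 3 groups. The design text gave the purpose as a search for molecular pathways behind the cochlear pathology of the variant.

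The genes fall into a circuit that is well known as background. Marginal cells, which face endolymph, load potassium from the fluid below them through the sodium-potassium-chloride cotransporter encoded by Slc12a2 and through the sodium pump, of which Atp1b2 encodes a beta subunit. They release it into endolymph through the channel formed by the pore subunit Kcnq1 and the accessory subunit Kcne1, and chloride leaves again through channels that need barttin, encoded by Bsnd. Kcnj10 encodes the inward rectifier potassium channel of intermediate cells, across which the potential is generated. Lrp2 encodes megalin, a large endocytic receptor present in marginal cells, and Atp13a5 encodes a P5-type ATPase. Slc12a2 is also made by fibrocytes of the spiral ligament, beside the stria, and Kcnj10 also by glia and supporting cells.

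Promoter sequences from RefSeq (GRCm38.p6, 250 bases before to 50 after the annotated start, 300 bases in all) matched 3 of the 8 genes by symbol. These are Kcnj10, Atp13a5 and Lrp2, and they are shown because no other of the 8 genes matched. They were also the genes whose homozygous libraries all exceeded all WT libraries, as described further on, and a link between that and their promoters was not tested. Capitals mark matches on either strand to the motifs searched, which were AAGGTCA (an estrogen-related receptor half-site), CACGTG and CATGTG (E-box forms that MITF can bind) and ACAAAG (a SOX core). Kcnj10 lies at chr1:172340960-172341259 on the plus strand, Atp13a5 at chr16:29378683-29378982 on the minus strand and Lrp2 at chr2:69585980-69586279 on the minus strand, and each is written 5′ to 3′ along its gene.
Kcnj10: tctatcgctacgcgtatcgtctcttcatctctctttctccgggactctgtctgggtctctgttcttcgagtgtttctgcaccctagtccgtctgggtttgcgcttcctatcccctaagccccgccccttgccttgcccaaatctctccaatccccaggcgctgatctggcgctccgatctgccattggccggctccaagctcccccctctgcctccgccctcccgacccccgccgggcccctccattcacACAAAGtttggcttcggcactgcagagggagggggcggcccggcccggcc
Atp13a5: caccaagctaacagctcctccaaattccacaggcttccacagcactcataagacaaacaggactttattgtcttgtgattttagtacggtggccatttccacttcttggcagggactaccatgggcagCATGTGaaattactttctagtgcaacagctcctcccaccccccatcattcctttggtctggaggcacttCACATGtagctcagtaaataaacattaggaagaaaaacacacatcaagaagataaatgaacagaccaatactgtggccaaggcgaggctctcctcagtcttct
Lrp2: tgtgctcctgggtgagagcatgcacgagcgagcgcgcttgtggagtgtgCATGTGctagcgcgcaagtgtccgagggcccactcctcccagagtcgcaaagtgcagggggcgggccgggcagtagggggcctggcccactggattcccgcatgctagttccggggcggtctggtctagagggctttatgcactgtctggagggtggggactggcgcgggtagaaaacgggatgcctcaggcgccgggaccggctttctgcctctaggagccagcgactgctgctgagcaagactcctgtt
The promoters of Kcnj10 and Lrp2 were rich in G and C, with a GC content of 63.7% and 65% and with 21 and 20 CpG dinucleotides. That of Atp13a5 had a GC content of 45.7% and 2 CpG, against medians of 52.7% and 7 CpG over all 32851 promoters of the same length. Kcnj10 held ACAAAG at base 251 of its window, the annotated start itself. Atp13a5 held CATGTG at base 129 and, on the other strand, at base 198, and Lrp2 held it at base 50. CATGTG occurred in 14.2% of all promoters, ACAAAG in 18.7%, CACGTG in 7.15% and AAGGTCA in 4.72%. These letters are a description of the windows and nothing was measured at them.

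The libraries differed in ways that bear on these genes. In the second table, the share of TPM in mitochondrially encoded genes was 2.17%, 2.22% and 6.16% in treated libraries 1 to 3, against 10.7% to 13.6% in homozygous libraries. Treated libraries 1 and 2 were nearly identical, with a robust spread of their log2 ratio of 0.0696 for genes at 1 to 5 TPM, where homozygous pairs gave 0.869 to 1.09, so they were counted as 1 sample and the treated group had n = 2. A forebrain marker was high in the same libraries: Camk2a, a kinase of excitatory neurons, stood at 745, 722 and 8.13 TPM in treated libraries 1 to 3, against 0.47 to 0.55 TPM in homozygous libraries. The targeted gene Mpzl2 stood at 5.64, 5.62 and 16.3 TPM in treated libraries, against 13.1 to 24.0 TPM in homozygous libraries of the second table. In the first table Mpzl2 stood at 12.5 to 23.2 TPM in homozygous libraries and 33.6 to 49.0 TPM in WT libraries.

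Markers of the stria were present in every library of the second table. Dct, an enzyme of pigment synthesis that marks intermediate cells, stood at 490, 498 and 1080 TPM in treated libraries, against 508, 1027 and 398 TPM in homozygous libraries. Esrrb, a nuclear receptor of marginal cells, stood at 101, 98.8 and 264 TPM in treated libraries, against 68.4, 182 and 42.6 TPM in homozygous libraries. Kidney-type epithelium, which also uses several of these transporters, was nearly absent, with the 3 of its 4 markers that the table lists summing to at most 0.846 TPM in any library. TPM is scaled by transcript length, so levels of different genes can be compared. In homozygous libraries the mean levels ran, from high to low, Slc12a2 at 837 TPM, Lrp2 at 450.4 TPM, Atp1b2 at 427 TPM, Kcne1 at 171 TPM, Kcnj10 at 110.0 TPM, Kcnq1 at 53.6 TPM, Atp13a5 at 34.0 TPM and Bsnd at 3.55 TPM. Neighbours in that order had overlapping ranges over the homozygous libraries, except that Kcnj10 stood above Kcnq1 and Atp13a5 above Bsnd throughout. In treated samples Lrp2 stood above Slc12a2, at 775 against 612 TPM, and the rest of the order was the same.

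In homozygous against WT libraries, every one of the 5 genes in the first table had a higher mean in the homozygous group. Of the 5 genes, 2 passed the test (limma on log2(TPM + 1), adjusted p under 0.05 over the table), Lrp2 and Atp13a5, where 17.9% of the 1348 genes tested in that table were called higher. The sources used here do not say how rows were picked for the first table, and Kcne1, Kcnq1 and Bsnd are not in it. They are treated as selected on these same samples, in which case adjusted p-values over them are too small and the calls are not independent evidence of a change.

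Lrp2, the endocytic receptor, stood at 265, 553 and 244 TPM in homozygous libraries 1 to 3, against 183, 180.3 and 152 TPM in WT libraries 1 to 3. The means were 354 ± 173 TPM in homozygous and 172 ± 17.0 TPM in WT libraries (SD, n = 3 each). All homozygous libraries exceeded all WT libraries, and library 2 was far above the other homozygous libraries. The log2 fold change was 0.94 (95% interval 0.29 to 1.60, limma adjusted p = 0.0400). Atp13a5, the P5-type ATPase, stood at 24.3, 37.2 and 17.2 TPM in homozygous libraries, against 15.3, 15.1 and 12.0 TPM in WT libraries. The means were 26.2 ± 10.1 TPM in homozygous and 14.1 ± 1.86 TPM in WT libraries (SD, n = 3 each). Again the groups did not overlap, and homozygous library 3 was only slightly above the highest WT library. The log2 fold change was 0.79 (95% interval 0.18 to 1.41, adjusted p = 0.0453).

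Slc12a2, the cotransporter, stood at 552, 854 and 450.3 TPM in homozygous libraries, against 482, 414 and 387 TPM in WT libraries. Homozygous library 3 was below WT library 1, so the groups overlapped, and the log2 fold change of 0.48 did not pass (95% interval -0.04 to 1.01, adjusted p = 0.0789). Atp1b2, the pump subunit, stood at 294, 439 and 215 TPM in homozygous libraries, against 269, 175 and 200.1 TPM in WT libraries. It overlapped in the same way, with a log2 fold change of 0.52 (95% interval -0.09 to 1.12, adjusted p = 0.0916). Kcnj10, the intermediate cell channel, stood at 70.9, 100.3 and 71.1 TPM in homozygous libraries, against 58.7, 70.7 and 58.2 TPM in WT libraries. Its groups did not overlap, by a margin of under 1 TPM, and its log2 fold change of 0.35 did not pass (95% interval -0.04 to 0.74, adjusted p = 0.0828).

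**Figure D1:**
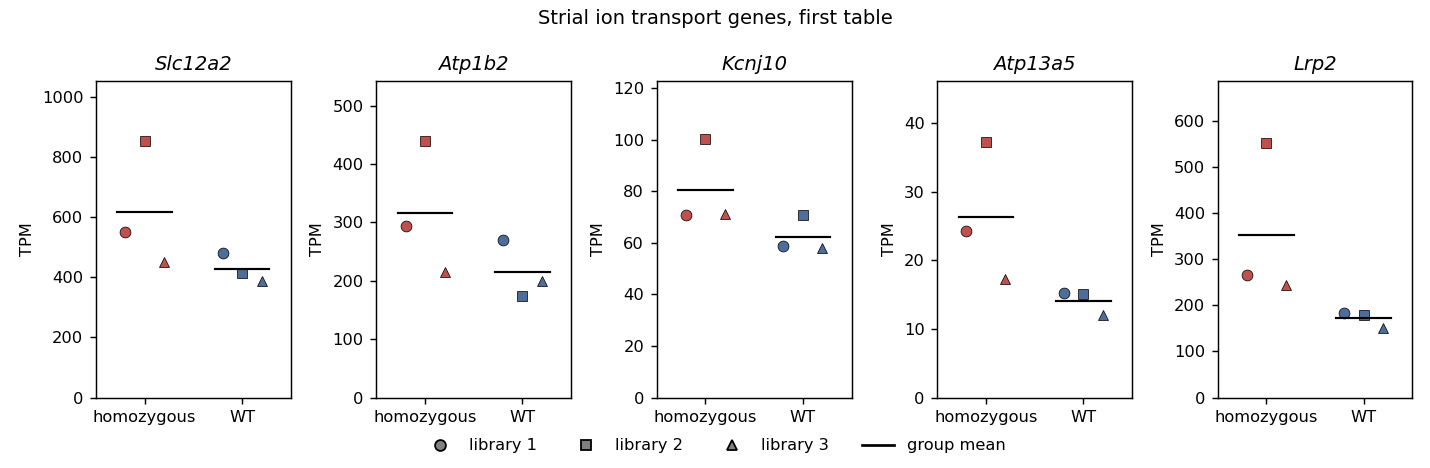
TPM of the 5 genes present in the first table, by group, with homozygous libraries on the left and WT libraries on the right of each panel. Symbols are libraries 1 to 3 and bars are group means; homozygous library 2 is the highest of all 6 libraries in every panel, and the groups do not overlap for Kcnj10, Atp13a5 and Lrp2.

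The groups did not overlap, with the homozygous group higher, for 3 of the 5 genes, where 31.5% of all tested genes behaved so. The median log2 fold change of the 5 genes was 0.52, against -0.36 over all genes tested. With median-of-ratios scaling, which shifted the median of all genes by 0.137, to -0.23, 4 of the 5 genes passed and the calls over all genes turned to 465 higher and 216 lower, against 241 higher and 451 lower with TPM as deposited. None of the 5 passed without WT library 1, 2 or 3, although the log2 fold changes were then 0.86 to 0.99 for Lrp2 and 0.69 to 0.85 for Atp13a5, and there were 103 to 145 calls over all genes, against 692 with all libraries. None passed without homozygous library 1 and 4 passed without homozygous library 3. The size depended on homozygous library 2: without it the log2 fold change was 0.57 for Lrp2, which still passed, 0.52 for Atp13a5, 0.25 for Atp1b2, 0.23 for Slc12a2 and 0.19 for Kcnj10, with a median of 0.25.

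In the same libraries, summed spiral ligament fibrocyte markers (5 of 7 in the table) stood at 5652 to 8383 TPM in the homozygous group, against 5484 to 5856 TPM in the WT group, and 2 of them rose and 2 fell. Summed basal cell markers (2 of 4) stood at 226 to 304 TPM in the homozygous group, against 142 to 223 TPM in the WT group, and summed intermediate cell markers (2 of 8) at 256 to 575 TPM, against 186 to 288 TPM in the WT group. Schwann and satellite glia markers (3 of 6) all fell, with sums of 2569 to 4907 TPM in the homozygous group, against 6909 to 7411 TPM in the WT group. Vestibular markers (3 of 5) all fell too, with sums of 18.3 to 31.9 TPM in the homozygous group, against 43.3 to 103 TPM in the WT group. The largest part in WT libraries was Tectb, at 17.8 to 54.7 TPM, against 8.88 to 20.3 TPM in homozygous libraries. The amount of vestibular tissue was not measured. Astrocyte markers (3 of 6) summed to 282 to 311 TPM in the homozygous group, against 185 to 272 TPM in the WT group. The part of these cells in the values of the 5 genes was not tested. In bulk tissue, fewer or more cells of a type and less or more RNA per cell cannot be told apart.

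In treated against homozygous libraries, 7 of the 8 genes had a higher mean in the treated group and Slc12a2 had a lower one, but none passed the test. The count was 0 of 8 in limma, where 4.41% of the 17102 genes tested were called. An unadjusted limma p under 0.05 was also reached by 0 of 8, where 4574 of the 17102 genes reached it. The groups overlapped for all 8 genes, where 45% of all tested genes did not overlap between the 2 treated samples and the 3 homozygous libraries.

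Of the potassium exit channel, Kcne1 stood at 131, 129 and 397 TPM in treated libraries 1 to 3, against 125, 297 and 89.6 TPM in homozygous libraries 1 to 3. Kcnq1 stood at 50.9, 48.2 and 126 TPM in treated libraries, against 38.7, 92.9 and 29.2 TPM in homozygous libraries. For both genes, treated library 3 was the highest of all and homozygous library 2 the next, well above the remaining libraries of both groups. The log2 fold change was 0.60 for Kcne1 (95% interval -0.88 to 2.08, adjusted p = 0.572) and 0.73 for Kcnq1 (95% interval -0.63 to 2.10, adjusted p = 0.450). Exons of Kcnq1 overlap the antisense RNA Kcnq1ot1, and the sources used here do not say whether reads were counted by strand. Kcnq1ot1 stood at 12.4 to 17.9 TPM in treated libraries, against 21.5 to 22.5 TPM in homozygous libraries, without the peaks that Kcnq1 had.

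Of the potassium entry route, Slc12a2 stood at 392, 369 and 844 TPM in treated libraries, against 742, 1156 and 613 TPM in homozygous libraries. Treated libraries 1 and 2 were below every homozygous library, while treated library 3 was within their range. The log2 fold change was -0.51 (95% interval -1.49 to 0.48, adjusted p = 0.468), and with treated library 3 alone it was 0.06. Atp1b2 stood at 435, 474 and 568 TPM in treated libraries, against 404, 593 and 284 TPM in homozygous libraries. All treated libraries lay inside the homozygous range, with a log2 fold change of 0.31 (95% interval -0.46 to 1.09, adjusted p = 0.571).

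Bsnd, the chloride channel partner, stood at 3.59, 3.42 and 14.3 TPM in treated libraries, against 2.32, 7.08 and 1.25 TPM in homozygous libraries. It was the lowest of the 8 genes and the most variable, with a log2 fold change of 1.08 (95% interval -0.68 to 2.84, adjusted p = 0.392). Kcnj10 stood at 134, 127 and 185 TPM in treated libraries, against 95.3, 137 and 98.1 TPM in homozygous libraries. Its homozygous library 2 lay just above the lower treated libraries, and the log2 fold change was 0.51 (95% interval -0.07 to 1.10, adjusted p = 0.235).

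Lrp2 stood at 569, 568 and 982 TPM in treated libraries, against 334, 717 and 300.2 TPM in homozygous libraries. Only homozygous library 2 reached into the treated range, and the log2 fold change was 0.84 (95% interval -0.19 to 1.87, adjusted p = 0.260). Atp13a5 stood at 42.7, 30.4 and 59.6 TPM in treated libraries, against 31.5, 49.4 and 21.2 TPM in homozygous libraries. Here treated libraries 1 and 2 differed more than for any of the other genes, by a ratio of 1.41, against 0.918 to 1.06 for the rest. The log2 fold change of Atp13a5 was 0.53 (95% interval -0.42 to 1.47, adjusted p = 0.432).

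**Figure D2:**
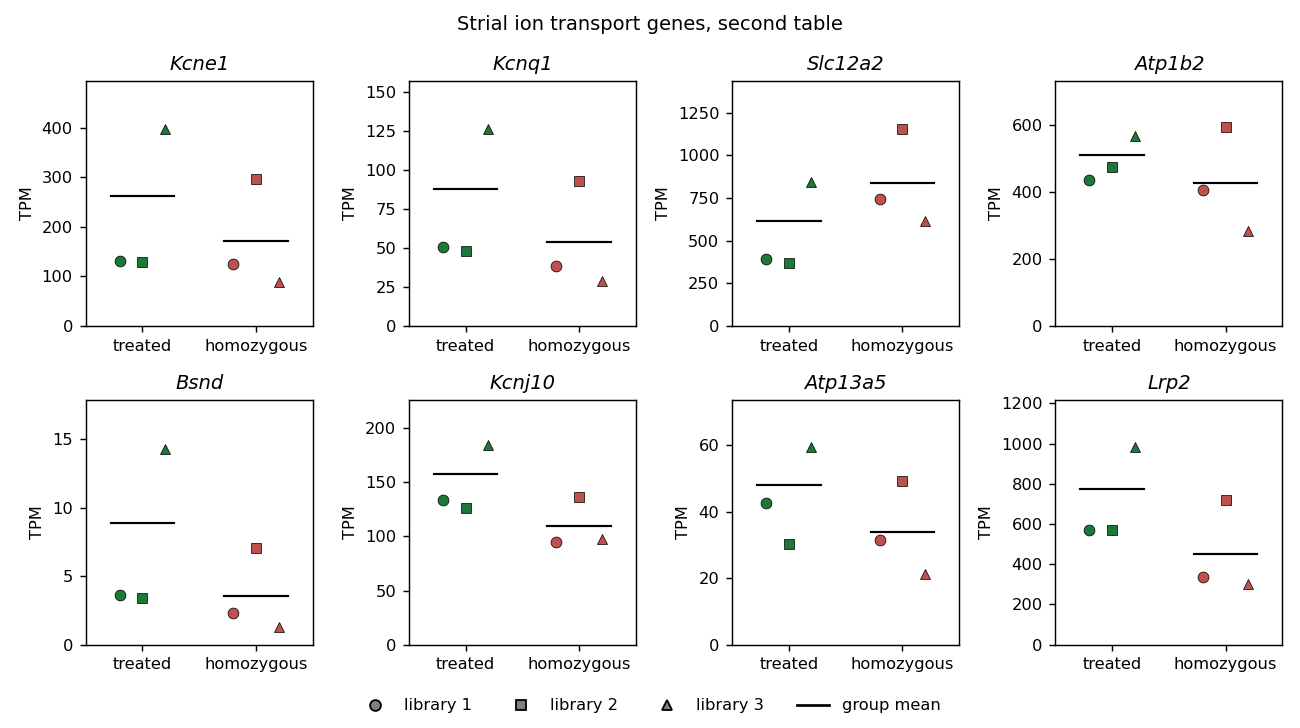
TPM of the 8 genes in the second table, with treated libraries on the left and homozygous libraries on the right of each panel. Symbols are libraries 1 to 3 and bars are group means, with treated libraries 1 and 2 averaged as 1 sample; treated library 3 and homozygous library 2 are the highest of their groups in every panel.

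The median log2 fold change of the 8 genes was 0.56, against 0.20 over all genes tested. With median-of-ratios scaling, which shifted the median of all genes by -0.171, to 0.02, the median of the 8 genes was 0.37. The values depended on single libraries. Without treated library 3 the log2 fold change was -1.08 for Slc12a2, -0.20 for Kcne1, 0.07 for Kcnq1, 0.15 for Atp1b2, 0.18 for Atp13a5, 0.20 for Bsnd, 0.26 for Kcnj10 and 0.45 for Lrp2. The median of the 8 genes was then 0.17, below the 0.29 over all genes. Without homozygous library 2 the median of the 8 genes was 0.96, and with treated library 3 alone it was 1.05. Both comparisons use the same homozygous samples, although the values were normalized separately in each table. In the second table, homozygous values of the 5 shared genes were 1.23 to 1.38 times those in the first, where the median over 1224 shared genes was 1.17 in each library. Treated libraries were therefore not compared with WT libraries.

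**Figure D3:**
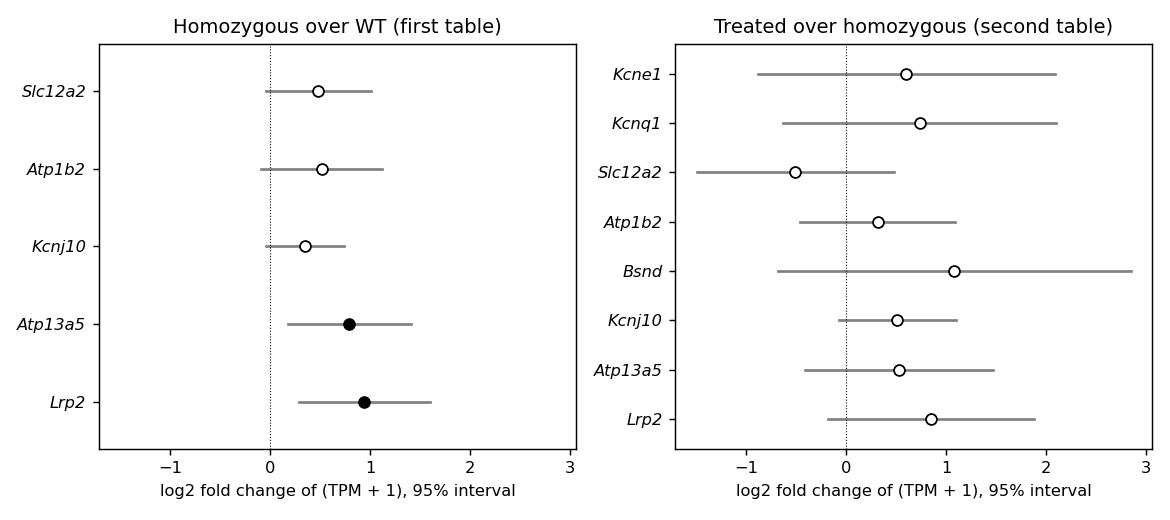
Log2 fold change of (TPM + 1) with its 95% interval for homozygous over WT libraries (left, 5 genes) and treated over homozygous libraries (right, 8 genes). Filled points passed an adjusted p of 0.05: Atp13a5 and Lrp2 on the left and none on the right, where every interval includes 0.

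Cell type markers moved with the treated libraries too. Forebrain neuron markers summed to 1258, 1237 and 178 TPM in treated libraries 1 to 3, against 156 to 193 TPM in homozygous libraries, and astrocyte markers, of a cell type that makes Kcnj10 and Atp1b2, to 1660, 1658 and 333 TPM, against 395 to 527 TPM in homozygous libraries. Neither list had a member called higher or lower, but only 3 of the 6 neuron markers reached the filter on low values and were tested. A gene high only in treated libraries 1 and 2 also enters the test as 1 of 2 treated samples, so these counts decide little. In treated libraries the astrocyte sum was mostly Slc1a2, a glutamate transporter, at 1229, 1236 and 174 TPM in treated libraries, against 123 to 137 TPM in homozygous libraries, and 3 of the 6 markers (Gfap, Aqp4 and Gja1) had log2 fold changes below 0. Summed macrophage markers were 324 to 350 TPM in treated libraries, against 65.2 to 98.1 TPM in homozygous libraries, and 4 of 6 rose. Of the 6 neuron markers, 3 (Neurod6, Tbr1 and Neurod2) were listed at 0 or under 1 TPM in treated library 3 and in all homozygous libraries. Choroid plexus markers summed to 102 to 160 TPM in treated libraries, against 44.6 to 65.2 TPM in homozygous libraries, and vestibular markers to 138 to 187 TPM, against 37.7 to 65.8 TPM in homozygous libraries. Of 4 vestibular markers tested, 1 rose, Otog, at 87.9 to 98.2 TPM in treated libraries, against 16.9 to 30.7 TPM in homozygous libraries (limma adjusted p = 0.0223), while Oc90 and Otop1 had log2 fold changes below 0. Most of the vestibular sum was Otog and Tectb, the latter at 40.2 to 77.3 TPM in treated libraries, against 8.34 to 27.9 TPM in homozygous libraries. The list thus did not move as a whole, and its sum is no measure of vestibular tissue. Spiral ligament fibrocyte markers summed to 6620, 6489 and 8166 TPM in treated libraries, against 13962, 16197 and 11027 TPM in homozygous libraries, with Coch and Otos the larger part of the sum in homozygous libraries. Emilin2 ran the other way, at 255 to 411 TPM in treated libraries, against 78.3 to 261 TPM in homozygous libraries. Of the 7 fibrocyte markers, 1 fell: Otos, a secreted protein of fibrocytes, had a log2 fold change of -1.67 with an adjusted p of 0.0346 in limma. That call was lost without homozygous library 1, 2 or 3, where the log2 fold change was -1.55 to -1.82, with treated library 3 alone and with no filter on low values. Oligodendrocyte markers summed to 311 to 446 TPM in treated libraries, against 643 to 1305 TPM in homozygous libraries, and 1 of 5 tested fell. They include Cldn11, also in the basal cell list, at 91.0 to 225 TPM in treated libraries, against 215 to 262 TPM in homozygous libraries. Schwann and satellite glia markers summed to 4384 to 4482 TPM in treated libraries, against 4903 to 9062 TPM in homozygous libraries. Hair cell markers summed to 312 to 473 TPM in treated libraries, against 135 to 255 TPM in homozygous libraries. The part of these cells in the values of the 8 genes was not tested. Treated library 3, with little of the neuron RNA, had the highest treated value of all 8 genes.

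Libraries of the same group differed widely, and the genes shared these differences. Between the highest and the lowest homozygous library the level differed by a factor of 1.43 for Kcnj10 to 5.66 for Bsnd. All 8 were highest in homozygous library 2 among homozygous libraries, where 40.5% of the genes tested were, and all 8 were highest in treated library 3 among treated libraries, where 39.1% of the genes tested were. Both held for 19% of all genes. In the first table, all 5 genes were highest in homozygous library 2 of all 6 libraries, where 27.4% of its genes were. The order library 2, then 1, then 3 among homozygous libraries held for 7 of the 8 genes, against 20.1% of all genes, the exception being Kcnj10, for which libraries 1 and 3 were nearly equal. These counts were not changed by median-of-ratios scaling for the highest homozygous and the highest treated library.

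The size of the shared peak differed by gene. The ratio of homozygous library 2 to the mean of libraries 1 and 3 was 3.96 for Bsnd, 2.76 for Kcne1, 2.74 for Kcnq1, 2.26 for Lrp2, 1.87 for Atp13a5, 1.72 for Atp1b2, 1.71 for Slc12a2 and 1.41 for Kcnj10. The ratio of treated library 3 to the mean of libraries 1 and 2 was 4.07 for Bsnd, 3.05 for Kcne1, 2.54 for Kcnq1 and 2.22 for Slc12a2, and 1.25 to 1.73 for the other 4 genes. Bsnd, Kcne1 and Kcnq1, which serve the release of chloride and potassium from marginal cells, had the highest ratios of the 8 genes in both groups. Atp1b2 and Kcnj10 were among the lowest in both groups. Slc12a2 was close to Atp1b2 in the homozygous group, at 1.71 against 1.72, but next below Kcnq1 in the treated group, at 2.22. A link between these ratios and the cell types that make each gene was not tested.

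Most, but not all, markers of marginal and intermediate cells peaked in the same libraries, as Esrrb and Dct, given above, did. Of the marginal list, Cacna2d1 stood at 124, 115 and 51.9 TPM in treated libraries, against 39.3, 53.2 and 55.4 TPM in homozygous libraries. Of the intermediate list, Kcnj13, Pmel and Tyrp1 were lower in treated library 3 than in treated libraries 1 and 2. The other markers of both lists peaked as Esrrb and Dct did. Intermediate cell markers (8 genes) summed to 1045, 1013 and 2342 TPM in treated libraries, against 997, 1928 and 805 TPM in homozygous libraries. The sum of basal cell markers (4 genes) was flatter, at 622, 588 and 780 TPM in treated libraries, against 757, 776 and 762 TPM in homozygous libraries. Its members differed, since Cldn11 and Slc2a1 were highest in treated library 3 and homozygous library 2 of their groups. Tjp1 was lowest in those libraries, at 202, 188 and 114 TPM in treated libraries, against 221, 172 and 237 TPM in homozygous libraries. Nr2f2 was highest in treated library 3 and lowest in homozygous library 2. The flat sum therefore does not describe each basal marker. No gene of these lists was called in treated against homozygous libraries. How much strial tissue each library held was not measured, and its part was not tested.

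**Figure D4:**
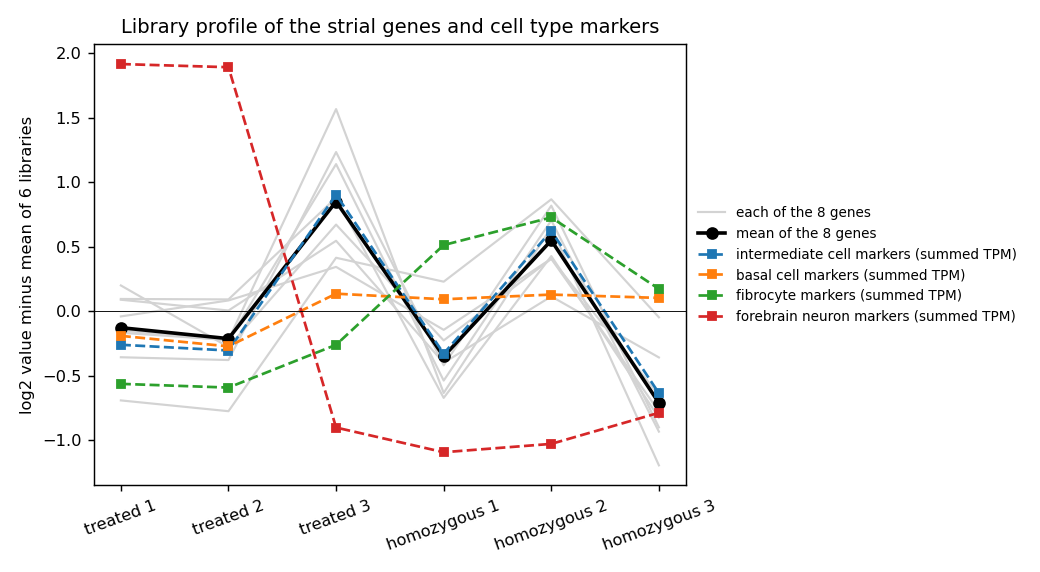
Profile over the 6 libraries of the second table, on a log2 scale centred on each line's own mean, for each of the 8 genes (grey), their mean (black) and summed markers of 4 cell types (colours). The mean of the 8 genes and the intermediate cell markers peak together at treated library 3 and homozygous library 2, while the basal cell line is flatter and the forebrain neuron line is high only in treated libraries 1 and 2.

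The genes whose profile was most like the mean of the 8 genes included Xpnpep1, Nbl1, Stac and H1f2. Likeness was the root mean square distance of centred log2 values over 5 samples (3 homozygous libraries and 2 treated samples), and was 0.0485 for Xpnpep1, 0.0564 for Nbl1, 0.0857 for Stac and 0.0957 for H1f2, among 5278 of similar spread. Of the 8 genes themselves, Atp13a5 was closest to their mean, at 0.135, and Slc12a2 was farthest, at 0.515. The 5 samples share libraries with the values above, so this is a description.

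Within a library, the ratio of 2 genes does not depend on how the library was scaled. Kcne1 and Kcnq1, the subunits of 1 channel, had the steadiest ratio of the 28 pairs. Kcne1 was 2.57, 2.68 and 3.15 times Kcnq1 in treated libraries, against 3.24, 3.20 and 3.07 times in homozygous libraries. The standard deviation of their log2 ratio over the 5 samples was 0.125, while each gene alone varied more than 4-fold between its lowest and its highest sample, by a factor of 4.43 for Kcne1 and 4.32 for Kcnq1. Such closeness was not particular to the subunits of this channel. The root mean square distance of centred log2 values was 0.1121 between Kcne1 and Kcnq1. It was smaller between Kcne1 and Padi1, at 0.1116, and between Kcnq1 and Ptger3, at 0.0854. The ratio of Bsnd to Kcne1 was less steady, at 0.0274, 0.0265 and 0.0360 in treated libraries, against 0.0185, 0.0238 and 0.0140 in homozygous libraries, with every treated library higher.

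Ratios with Slc12a2 separated the groups. Relative to each of the other 7 genes it was lower in both treated samples than in every homozygous library, a pattern it had against 28.3% of all 17101 other genes. Slc12a2 was 2.99, 2.86 and 2.13 times Kcne1 in treated libraries, against 5.92, 3.89 and 6.84 times in homozygous libraries. It was 7.69, 7.66 and 6.70 times Kcnq1 in treated libraries, against 19.2, 12.4 and 21.0 times in homozygous libraries. In these pairs treated library 3 stood with treated libraries 1 and 2, although its levels were the highest of its group.

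Of the 28 pairs of genes, 11 did not overlap between groups, which were all 7 pairs with Slc12a2 and 4 of the 21 pairs without it. In those 4, Bsnd was higher in treated samples relative to Kcne1 and Kcnq1, and Lrp2 relative to Atp1b2 and Atp13a5. Bsnd was higher in this way relative to 10.2% of all other genes and Lrp2 relative to 21.1%. Relative to Slc12a2, the treated mean exceeded the homozygous mean on the log2 scale by 0.82 for Atp1b2, 1.02 for Kcnj10, 1.03 for Atp13a5, 1.11 for Kcne1, 1.24 for Kcnq1, 1.35 for Lrp2 and 1.59 for Bsnd. The pattern was noticed in these values and carries no test, and an exact permutation test of 2 against 3 samples cannot go below p = 0.1. All 7 genes kept it with a pseudocount of 0.1 and with treated libraries kept apart. The summed fibrocyte markers given above, though not each marker, were lower in every treated library than in every homozygous library, and their part was not tested.

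**Figure D5:**
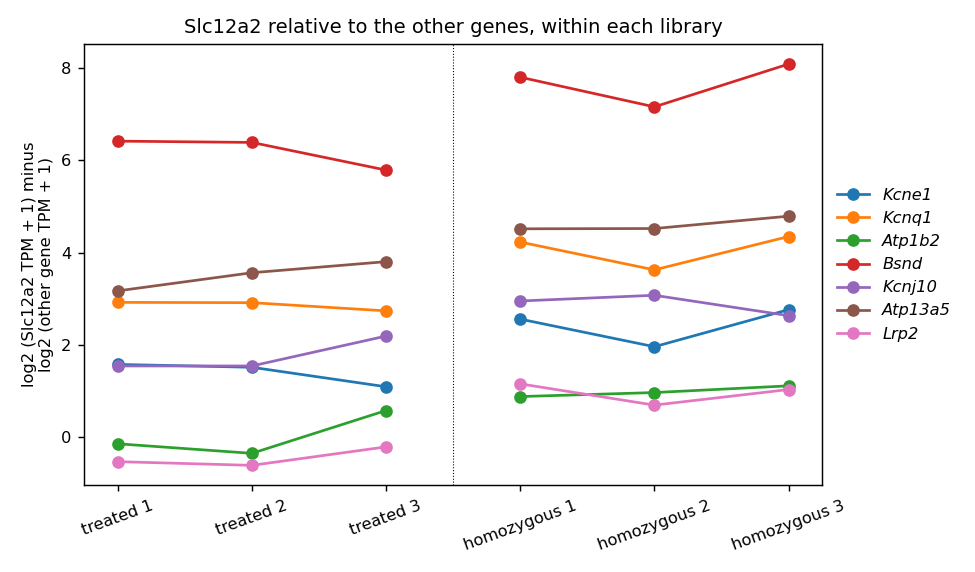
Log2 (Slc12a2 TPM + 1) minus log2 (other gene TPM + 1) within each library, treated libraries on the left and homozygous libraries on the right, a line per other gene. Every line is lower in all treated libraries than in all homozygous libraries.

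Of the 10 pairs in the first table, 3 did not overlap: Slc12a2 with Atp13a5, Slc12a2 with Lrp2 and Kcnj10 with Lrp2. Over the 1347 other genes of that table, Lrp2 was higher in every homozygous library relative to 64.9% and Atp13a5 relative to 55.2%, while Slc12a2 was lower relative to 3.34% and Kcnj10 relative to 6.31%. Lrp2 was 0.481, 0.647 and 0.541 times Slc12a2 in homozygous libraries, against 0.379, 0.435 and 0.392 times in WT libraries. Atp1b2 was 0.533, 0.513 and 0.478 times Slc12a2 in homozygous libraries, against 0.559, 0.421 and 0.516 times in WT libraries, so these ratios overlapped. An exact permutation test of 3 against 3 libraries cannot go below p = 0.1 either.

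Other genes of the same pathways were followed by list. Of the other sodium pump subunits and their FXYD regulators, 0 of 2 were called in homozygous against WT libraries (among them Atp1b3, at 379 to 442 TPM in homozygous libraries, against 320.0 to 378 TPM in WT libraries) and 0 of 11 in treated against homozygous libraries. Atp1b1, another beta subunit, stood at 1812, 1806 and 2349 TPM in treated libraries, against 1920, 1879 and 1835 TPM in homozygous libraries. It was thus several times higher than Atp1b2 and without its peak in homozygous library 2.

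Of the kinases that control the cotransporter and the potassium-chloride cotransporters, 0 of 3 were called in homozygous against WT libraries, where the highest were Slc12a7 at 273 to 314 TPM in homozygous libraries, against 231 to 252 TPM in WT libraries, and Cab39l at 153 to 190 TPM, against 136 to 148 TPM in WT libraries. Of the 9 genes in the second table, 1 rose in treated against homozygous libraries. That gene was again Slc12a7, a potassium-chloride cotransporter, at 517, 469 and 495 TPM in treated libraries, against 264, 288 and 255 TPM in homozygous libraries. Unlike Slc12a2, it was flat within each group and the groups were far apart, with a log2 fold change of 0.88 (adjusted p = 0.0409). The call was lost with median-of-ratios scaling (log2 fold change 0.68, adjusted p = 0.0867), with no filter on low values, with treated library 3 alone, with mitochondrially encoded genes left out, and without homozygous library 1, 2 or 3.

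Of 5 genes of anion and proton transport in endolymph, 2 were in the first table and 1 rose, Slc4a11, a transporter of fibrocytes. Slc4a11 stood at 316, 816 and 280 TPM in homozygous libraries, against 138, 84.1 and 170 TPM in WT libraries, a log2 fold change of 1.72 (adjusted p = 0.0241), again with homozygous library 2 highest. That call was lost without WT library 1 (adjusted p = 0.0583) or WT library 2 (adjusted p = 0.0648). Of the 5, 0 were called in treated against homozygous libraries, where Car2, a carbonic anhydrase, stood at 189 to 346 TPM in treated libraries, against 139 to 271 TPM in homozygous libraries, and Slc4a11 stood at 327, 311 and 692 TPM in treated libraries, against 420, 1109 and 381 TPM in homozygous libraries.

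Of the other P5-type ATPases, 0 of 4 were in the first table and 1 of 4 rose in treated against homozygous libraries. This was Atp13a1, at 56.4, 53.5 and 47.5 TPM in treated libraries, against 20.4, 21.4 and 20.9 TPM in homozygous libraries, with a log2 fold change of 1.25 (adjusted p = 0.0331). Its libraries agreed closely within each group, in contrast to Atp13a5. The call was lost without homozygous library 1, 2 or 3, with adjusted p-values of 0.0767 to 0.178, with treated library 3 alone and with no filter on low values.

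No member was called in the remaining lists. Of the other lateral wall inward rectifiers, 0 of 1 passed in homozygous against WT libraries and 0 of 3 in treated against homozygous libraries, with Kcnj16 at 294, 306 and 428 TPM in treated libraries, against 226, 206 and 263 TPM in homozygous libraries. Kcnj13, the next highest, which choroid plexus also makes, stood at 83.8, 52.1 and 24.3 TPM in treated libraries, against 7.76, 16.7 and 11.2 TPM in homozygous libraries (limma adjusted p = 0.0917). Of the megalin partners, 0 of 4 tested passed in treated against homozygous libraries, with Lrpap1, a chaperone of megalin, at 175, 170 and 337 TPM in treated libraries, against 168, 288 and 136 TPM in homozygous libraries. Lrpap1 peaked in the same libraries as Lrp2, while Dab2, an adaptor of megalin, stood at 78.1, 128 and 131 TPM in treated libraries, against 110.5, 122 and 116 TPM in homozygous libraries. Of the other KCNE subunits 0 of 2 tested passed, Kcne4 with at most 8.76 TPM and Kcne2 with at most 4.22 TPM in any library. Of the strial transcription factors 0 of 1 passed in homozygous against WT libraries and 0 of 6 in treated against homozygous libraries, the highest being Esrrb, given above, and Tbx18, a factor of the otic mesenchyme, at 112, 135 and 110.5 TPM in treated libraries, against 64.3, 94.8 and 67.8 TPM in homozygous libraries.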

How the data were processed

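The submitters' processing notes name kallisto 0.51.0 for quantification, DESeq (version not given in the sources used here) and build GRCm39. The authors deposited TPM, which is scaled for transcript length and library total, in 2 tables normalized separately, so each was tested by itself. TPM keeps no depth: depth is unknown and no counting interval is given. Sample titles set the groups, since the labels' genotype numbers rose from sample to sample. Nothing in the labels beyond the word biological says that replicates were separate animals.

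Repeated symbols were summed. The test took genes reaching 1 TPM in 3 or more libraries, all 8 genes among them, on log2(TPM + 1) in limma 3.58.1 (R 4.3.3) with a trend of variance on mean. P-values were two-sided, Benjamini-Hochberg adjustment ran over each table, and the threshold was 0.05. This scale understates changes of low genes. The scripts were tested on simulated data. Genes, lists and tests were chosen with earlier results of these data known. The rule named called genes of each pathway list, or otherwise its highest 2. Results of some genes it named are not reported here. Gene ratios and single markers were chosen after their values were seen. Replicate numbers did not pair samples. Alternatives changed pseudocount, filter, scaling, replicate block, merging of libraries, mitochondrial genes and each library in turn. Promoters have their own build.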

Additional observations from a re-analysis of the deposited data

How the results depend on the processing

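For homozygous against WT, 37 of 50 alternative fold changes of the 5 genes kept direction and side of the threshold, 9 lost the call, 4 gained it and 0 changed sign. The number of genes called was 4 with median-of-ratios scaling and 0 to 4 with a library left out. For treated against homozygous, 102 of 104 kept both and 2 changed sign: Slc12a2 was 0.0647 with treated library 3 alone, and Kcne1 ranged from -0.201 to 1.09 with a library left out; the cause was not tested. The number called stayed at 0 throughout. For the other called genes named, chosen after their values were seen, 2 of 10 alternatives lost the call in the first table (Slc4a11) and 17 of 39 in the second (Slc12a7, Atp13a1, Otos), and 0 changed sign.

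With the replicate block the number called was 2 and 0. Deviations of same-numbered samples correlated at 0.0493, -0.14 and -0.0743 in the first table and 0.0304, -0.146 and -0.117 in the second, and 1 of 6 and 0 of 6 libraries correlated best with their own number, so the numbers gave no pairing. Over all genes, 692 calls in the first table became 343 with the replicate block and 103 to 611 with a library left out. The 754 calls in the second became 134 with no filter on low values, 222 with treated library 3 alone, 1485 with the replicate block and treated libraries kept separate, 3563 with them only kept separate, and 63 to 2984 with a library left out. With 2 treated samples the intervals of the 8 genes were wide. TPM gives no depth, so no detection limit can be set for Bsnd.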
